A study of Mus musculus with 12 samples.

Results

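The 5hmC library labelled iTreg was compared with the 5hmC library labelled Th17 over mouse gene areas. A gene area is the stretch from the start to the end coordinate of a gene. Of 37752 gene areas in the deposited table, 17018 entered the comparison. They were at least 3000 bp long and had a signal of at least 10 in either library. A gene name found more than once was represented by the entry with the greatest average over the 5mC and 5hmC libraries.

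The labels of these libraries were in doubt. Il17a and Il17f, which define Th17 cells, carried the higher 5hmC signal in the library labelled iTreg, and the doubt rests on these genes. Foxp3, which defines regulatory T cells, carried only slightly more in the library labelled Th17 (30.9 against 25.3), beside an IgG signal of 4.5. The names "labelled iTreg" and "labelled Th17" therefore say what the labels say and name no cell type.

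The series set 5-methylcytosine (5mC) beside 5-hydroxymethylcytosine (5hmC) in 5 kinds of mouse T cell: naive, Th1, Th2, iTreg and Th17. Sonicated, denatured genomic DNA was precipitated with an antibody to either base and sequenced, and Th17 cells also gave a control IgG library and an input library. Each cell type and antibody gave 1 library, so no difference has a replicate check and none could be tested. The mice of the study were CD2(Cre)Tet2(f/f) animals, in which Cre driven by CD2 deletes the floxed Tet2 gene in lymphocytes, and their wild-type littermates on a mixed background. The labels did not give the genotype behind any single library, nor how the cells were cultured or pooled.

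Tet enzymes oxidise 5mC to 5hmC, a step on the way to unmethylated cytosine, and 5hmC is common over the bodies and enhancers of genes in use. Th17 cells and induced regulatory T cells (iTreg) both arise from naive CD4 T cells in the presence of TGF-beta. Interleukin 6 acting through STAT3 turns the cell towards the cytokines IL-17A and IL-17F, while interleukin 2 acting through STAT5 favours Foxp3.

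Promoter sequences are given for 5 genes on which the results turn, because the difference between the libraries varied with the CpG content of promoters. Il17a and Il17f had CpG-poor promoters and a large difference, Irf3 and Socs3 had CpG-rich promoters and the same direction, and Nanos1 had a CpG-rich promoter and the opposite direction. Each is the 250 bases before the gene start in RefSeq on GRCm38.p6, written 5′ to 3′ on the strand of the gene, with CpG in capitals. Il17a lies on the plus strand (chr1:20730655-20730904, 4 CpG) and Il17f on the minus strand (chr1:20784271-20784520, 4 CpG). Irf3 lies on the plus strand (chr7:44997398-44997647, 16 CpG), Socs3 on the minus strand (chr11:117969367-117969616, 26 CpG) and Nanos1 on the plus strand (chr19:60755737-60755986, 25 CpG).
Il17a: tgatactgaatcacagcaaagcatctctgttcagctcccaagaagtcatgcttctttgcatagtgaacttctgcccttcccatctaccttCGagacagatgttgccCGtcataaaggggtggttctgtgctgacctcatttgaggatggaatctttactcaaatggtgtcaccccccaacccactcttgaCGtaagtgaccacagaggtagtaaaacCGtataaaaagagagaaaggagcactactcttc
Il17f: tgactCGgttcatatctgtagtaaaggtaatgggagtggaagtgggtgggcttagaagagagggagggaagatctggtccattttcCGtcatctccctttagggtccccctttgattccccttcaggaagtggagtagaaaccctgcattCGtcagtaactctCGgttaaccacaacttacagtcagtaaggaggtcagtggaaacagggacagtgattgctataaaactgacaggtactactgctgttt
Irf3: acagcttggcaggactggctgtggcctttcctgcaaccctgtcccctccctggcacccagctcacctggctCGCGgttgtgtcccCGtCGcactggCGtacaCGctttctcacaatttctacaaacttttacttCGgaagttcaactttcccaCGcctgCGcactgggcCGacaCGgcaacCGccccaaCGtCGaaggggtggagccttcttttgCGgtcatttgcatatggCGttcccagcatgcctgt
Socs3: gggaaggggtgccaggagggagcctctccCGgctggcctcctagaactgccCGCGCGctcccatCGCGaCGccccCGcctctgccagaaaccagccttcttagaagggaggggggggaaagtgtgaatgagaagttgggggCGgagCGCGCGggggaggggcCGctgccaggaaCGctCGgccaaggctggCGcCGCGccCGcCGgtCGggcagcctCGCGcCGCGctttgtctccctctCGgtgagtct
Nanos1: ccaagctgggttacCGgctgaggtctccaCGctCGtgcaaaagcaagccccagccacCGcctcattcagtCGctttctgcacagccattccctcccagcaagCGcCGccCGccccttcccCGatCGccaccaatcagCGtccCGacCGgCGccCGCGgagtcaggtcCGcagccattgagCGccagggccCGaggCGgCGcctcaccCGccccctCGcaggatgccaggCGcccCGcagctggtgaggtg
All positions of gene areas that follow are those of the deposited table on build mm9 and cannot be set against these promoter positions. The table does not state whether its positions count from 0 or 1.

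Both interleukin 17 genes carried several times more 5hmC in the library labelled iTreg. Il17a (chromosome 1, 20720985 to 20724576), a cytokine that recruits neutrophils, had a signal of 7.6 in naive cells, 10.8 in Th1, 4.3 in Th2, 31.3 in the library labelled iTreg and 8.8 in that labelled Th17. This is a log2 difference of 1.81, labelled iTreg minus labelled Th17, after adding 0.2 to each signal. Il17f (chromosome 1, 20767226 to 20774350), its neighbour and partner in the IL-17A/F dimer, had 7.6, 10.4, 13, 32.8 and 5.3 in the same order, a log2 difference of 2.58. At both genes the library labelled iTreg stood above all 4 others, and that labelled Th17 lay within or below the range of naive, Th1 and Th2 cells. The IgG signal was 3.1 at Il17a and 2.4 at Il17f. In bulk samples, fewer cells of a type and less 5hmC per cell cannot be told apart.

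Foxp3, the transcription factor of regulatory T cells (chromosome X, 7156818 to 7172359), had 24.2 in naive cells, 13 in Th1, 16.9 in Th2, 25.3 in the library labelled iTreg and 30.9 in that labelled Th17. The log2 difference was -0.29, which lies between the 5th and the 95th percentile of all gene areas (-0.56 and 0.96). Foxp3 had an IgG signal of 4.5, above the median of 1.1, and the part of this background in the small difference was not tested. Gata3, the transcription factor of Th2 cells (chromosome 2, 9778704 to 9800226), had 99.6, 40.1, 75.2, 194.9 and 30.4, a log2 difference of 2.67. The highest Gata3 signal was thus in the library labelled iTreg and not in Th2 cells, and the lowest in the library labelled Th17. Gata3 also had an IgG signal of 15.1, against a median of 1.1, and the part of this background in the difference was not tested.

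**Figure D1:**
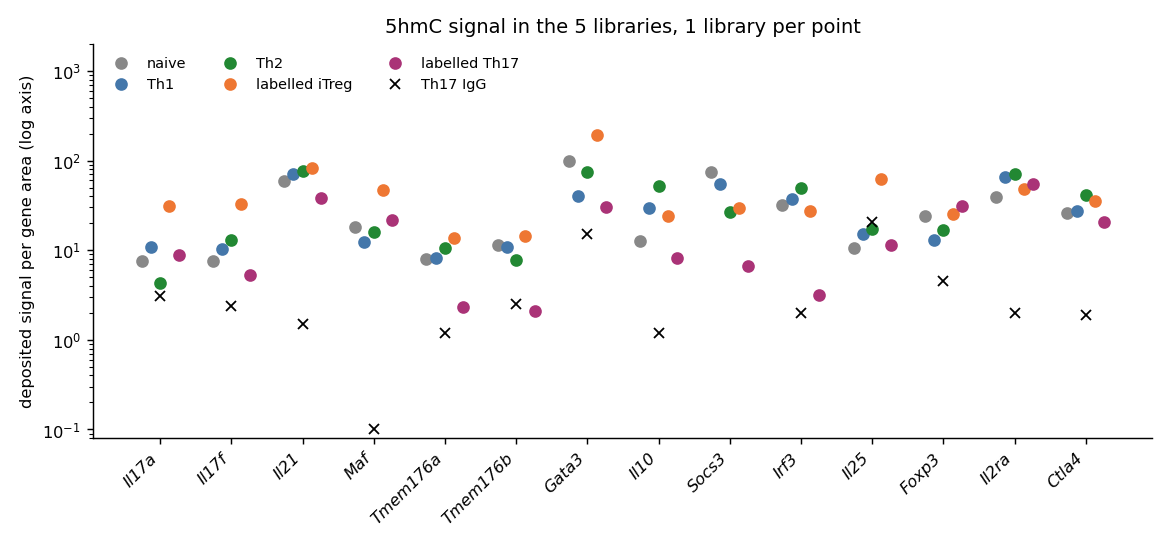
Deposited 5hmC signal (log axis) of 14 genes in the 5 libraries, 1 point per library, with the Th17 IgG signal as crosses (the IgG signal of Socs3 was 0 and is not drawn). The library labelled iTreg is the highest at Il17a, Il17f, Il21, Maf, Tmem176a, Tmem176b, Gata3 and Il25. That labelled Th17 is the lowest at Il17f, Il21, Tmem176a, Tmem176b, Gata3, Il10, Socs3, Irf3 and Ctla4, and the highest at Foxp3.

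The gene areas around interleukin 17 differed in the same direction, as did 66% of the gene areas compared, and by less than Il17a and Il17f. Mcm3, a subunit of the replicative helicase (chromosome 1, 20793094 to 20810293), had 16.6 in the library labelled iTreg and 7.5 in that labelled Th17 (log2 difference 1.13), and the adjoining Cct7-3p had 14.5 and 7.4 (0.95). On the other side, the microRNA genes Mir206 and Mir133b had 5.1 and 3.0 (0.73), and 4.1 and 2.6 (0.62), with an IgG signal of 2.7 and 7.2. Naive cells had the highest signal at Mcm3 (18.9) and Cct7-3p (16.0), unlike at Il17a and Il17f. Around Gata3, Gm2957, which lies inside the Gata3 area and shares its signal, had 200.7 and 44.0 (2.18). Next to Gata3, 4930412O13Rik had 67.5 and 23.8 (1.5), while Gm2844 and Gm2834 on the far side had 23.4 and 22.6 (0.05), and 68.1 and 50.1 (0.44). Beside Foxp3 the differences were small, from -0.49 at 4930524L23Rik, which overlaps Foxp3, and -0.42 at Ppp1r3f to 0.25 at Ccdc22 and 0.48 at Cacna1f. Cct7-3p, Mir206, Mir133b and Gm2834 were shorter than 3000 bp and so are not among the gene areas compared. At Mir133b the IgG signal was above the signal of both libraries.

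Over all 17018 gene areas the median log2 difference was 0.18, with quartiles of -0.11 and 0.47. The library labelled iTreg had the higher signal in 66% of them. A difference of at least 2-fold was used as a rule of size, not as a test. By it, 733 gene areas (4.31%) were higher in the library labelled iTreg and 142 (0.834%) in that labelled Th17. The split depended on scaling: dividing the libraries by median-ratio factors, an average-based factor or quantile normalization moved the median by -0.14 to -0.17 and gave 440 against 257, 400 against 281 and 524 against 389. The share of calls that were higher in the library labelled iTreg was 83.8% as deposited and 57.4% to 63.1% under these scalings. All 142 gene areas remained under each scaling, and all gene areas then called higher in the library labelled iTreg were among the 733. With the median-ratio and average-based factors, which shift all differences the same way, this follows from the shift and is no check of the calls. The scaling used by the authors is not given in the sources used here.

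Most calls were made in gene areas of modest signal. Both libraries reached 10 in 13304 gene areas, of which 219 (1.65%) were at least 2-fold higher in the library labelled iTreg and 22 (0.165%) in that labelled Th17. Another 2515 entered only through the library labelled iTreg and held 514 of the 733, and 1199 entered only through that labelled Th17 and held 120 of the 142. Just inside the 2-fold bound stood Cdan1 (10.0 and 4.9) and Gm19093 (5.0 and 10.2), and just outside it Rnf157 (35.3 and 17.6) and Gm9306 (19.1 and 38.3). Just inside the signal minimum stood 1110021J02Rik (10.0 and 6.8), and just outside it Zfp639 (9.9 and 7.3).

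**Figure D2:**
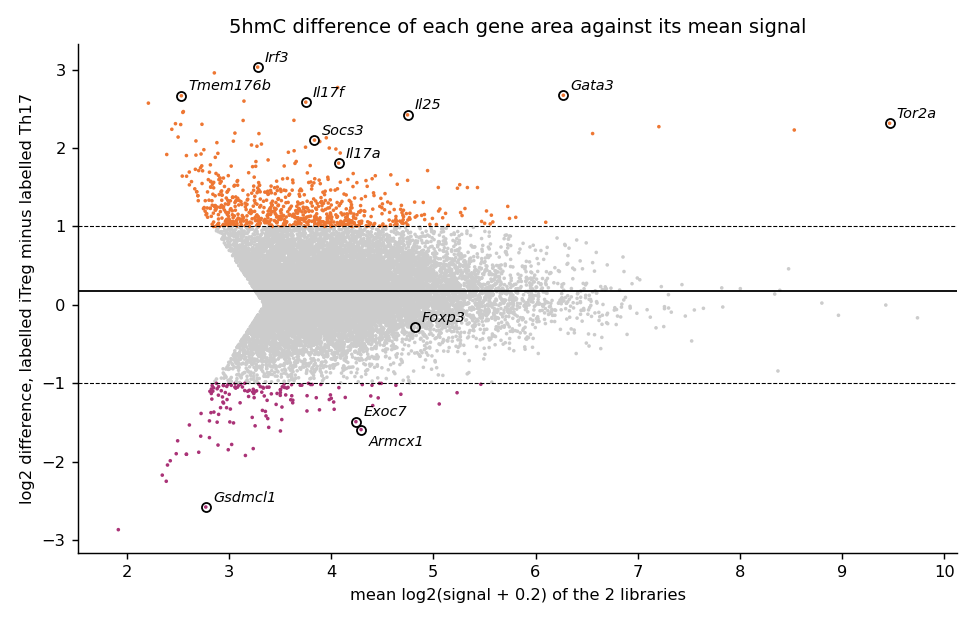
Log2 difference in 5hmC (labelled iTreg minus labelled Th17) of each of 17018 gene areas against the mean log2 signal of both libraries, with the median (0.18) as a solid line and the 2-fold bounds dashed. The 733 gene areas in orange outnumber the 142 in purple, most calls lie at low mean signal, and Gata3 and Tor2a stand far out at high signal.

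The 733 gene areas were mostly places where the library labelled Th17 was low. That library was the lowest of the 5 in 674 of the 733 (92%), against 39.5% of all gene areas, while the library labelled iTreg was the highest in 161 (22%), against 13.2%. Both held at 120, against 3.14% of all gene areas. The contrast helped to choose these genes, so the shares describe them and nothing is read from their size. They were counted on the deposited scale only. The median signal of the 733 was 23.8 in naive cells, 14.7 in Th1, 15.5 in Th2, 18.4 in the library labelled iTreg and 7.5 in that labelled Th17. Of the 142, the library labelled Th17 was the highest in 91, against 12.3% of all gene areas, and the library labelled iTreg the lowest in 94, against 11.5%. Both held at 49, against 1.72%. Their medians were 9.65, 10.0, 9.9, 6.1 and 14.2 in the same order.

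A stricter reading asked which gene areas stood at least 2-fold from all 4 other 5hmC libraries. This comparison and the genes named from it alone were chosen after seeing the data. The library labelled iTreg stood so far above in 10 and below in 15, and the library labelled Th17 above in 13 and below in 187. These counts use the deposited scale and were not recomputed under other scalings. The library labelled Th17 had the lowest median-ratio factor of the 5 (0.91), so the part of scale in them was not tested. The 10 held 6 genes with a gene symbol that is not a predicted one: Il25, Il17a, Il17f, Smok3a, Maf and Neurod6. Maf, a transcription factor that drives IL-21 and IL-10 (chromosome 8, 118227152 to 118230793), had 18, 12.5, 15.8, 46.4 and 21.5 in naive, Th1, Th2, labelled iTreg and labelled Th17, with an IgG signal of 0.1. Il25, also called IL-17E (chromosome 14, 55551531 to 55554673), had 10.5, 15.2, 17.1, 62.0 and 11.4. Its IgG signal of 20.5 was above 4 of the 5 libraries, which was not the case at Maf.

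Of the 12 largest differences, those at Gata3, Il17f and Il25 went with a high signal in the library labelled iTreg, and several others with a low signal in that labelled Th17. Irf3, a transcription factor of the antiviral response (chromosome 7, 52253029 to 52258217), had 32.2, 37.7, 48.9, 27.6 and 3.2, with an IgG signal of 2.0. Its log2 difference of 3.03 was the largest of the genes named by the rule. The adjoining Scaf1 had 36.4, 31.4, 31.4, 32.2 and 7.2 (2.13), and Bcl2l12 on the other side had 27.2, 25, 22.9, 17.1 and 4.9. The low signal thus ran over 3 neighbouring gene areas. On chromosome 17, Spsb3 had 25.1, 10.0, 13.8, 21.6 and 3.4 (2.60), and its neighbour Nubp2 had 12.6, 3.1, 11.0, 13 and 2.9 (2.09). At Nubp2 the Th1 library was about as low as that labelled Th17. Tubb2a, a beta tubulin, had 14.3, 8.1, 5.2, 11.1 and 1.7 (2.57) beside an IgG signal of 4.8, above the value in the library labelled Th17. Cdc42ep3 had 13.1, 14.9, 8.2, 14.6 and 2.8 (2.30). Odf3, a sperm tail gene, had 14.8, 14.9, 4.1, 12.6 and 2.4 (2.30), so that Th2 cells were low as well.

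Tmem176b and Tmem176a are adjoining membrane protein genes on chromosome 6 known from Th17 and myeloid cells. At both, the library labelled Th17 had the lowest signal of all 5 libraries and that labelled iTreg the highest. Tmem176b had 11.5, 10.8, 7.8, 14.4 and 2.1, with an IgG signal of 2.5, and Tmem176a had 8.0, 8.2, 10.7, 13.6 and 2.3. Their log2 differences were 2.67 and 2.46.

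A stretch on chromosome 2 carried a signal far above other gene areas in every library. Tor2a, an ATPase of the torsin family (32612790 to 32617763), had 2490.0, 841.9, 1064.8, 1575.3 and 316.3, with an IgG signal of 107.9. The overlapping Ttc16 had 801.0 in the library labelled iTreg and 170.6 in that labelled Th17 (2.23), and the adjoining Sh2d3c, a signalling adaptor, 324.4 and 67.0 (2.27). The 3 differences were alike, between 2.23 and 2.32 on the log2 scale, and the IgG signal was 54.3 at Ttc16 and 29.7 at Sh2d3c. The order of the libraries was the same at all 3, with naive highest and labelled Th17 lowest. Ttc16, Scaf1, Nubp2 and Bcl2l12 were chosen after their values were seen.

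The median signal of the 142 gene areas higher in the library labelled Th17 was 14.2 in that library, and single genes reached more, such as Kcnk6, a potassium channel, with 22.7, 23.4, 23.7, 21.3 and 51.4. Gsdmcl1, of the gasdermin C family (chromosome 15, 63678863 to 63682496), had 4.8, 11.1, 4.2, 2.6 and 16.5, a log2 difference of -2.58. Rgag1 (-2.25), Fezf1 (-2.17), Lrrc14b (-2.04) and the overlapping Hyls1 and Pus3 (-1.99 and -1.90) followed. Nanos1, an RNA-binding protein of the germ line (chromosome 19, 60831889 to 60835816), had 17.2, 10.9, 12.8, 3.2 and 12.3 (-1.88). At Lrrc14b, Hyls1, Pus3 and Nanos1 the library labelled iTreg was at least 2-fold below all the others, and that labelled Th17 lay within the range of naive, Th1 and Th2 cells. Kprp and Krt81, genes of epidermis and hair, showed the other pattern, with the library labelled Th17 alone high. Kprp had 5.6, 3.3, 5.9, 4.8 and 17.6 (-1.83), and Krt81 had 3.6, 4.6, 4.7, 6.3 and 19.6 (-1.61). Rtp2 (-1.69), Armcx1 (-1.59) and Vip, a neuropeptide (-1.53), completed the 12 lowest.

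Opposite differences could stand close together. Foxj1, a transcription factor of ciliated cells (chromosome 11, 116192017 to 116196667), had 26.4, 15.6, 21.4, 17.6 and 3.7 (2.19). The nearby Exoc7, of the exocyst complex (116149311 to 116168051), had 16.8, 24.5, 51.1, 11.1 and 31.5 (-1.49). The library labelled Th17 was thus the lowest at one and above all but Th2 at the other. Both genes were chosen after their values were seen.

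A list of Th17 genes had a higher median difference than all gene areas. It holds Il17a and Il17f, which put the labels in doubt, and is no independent evidence on them. Of 25 members of a Th17 list that entered the comparison, of 27 in the list, 6 were at least 2-fold higher in the library labelled iTreg, against 4.31% of all gene areas, and 0 in that labelled Th17. The list median was 0.61 beside 0.18 over all gene areas, and 20 of 25 lay above that overall median. The 6 were Tmem176b, Il17f, Tmem176a, Il17a, Il21 and Maf, of which the first 4 entered only through the library labelled iTreg. All 6 were shorter than 10000 bp, and of the 17 longer members 0 passed 2-fold. Il21, a cytokine that sustains Th17 and follicular helper cells, had 59.6, 71.2, 76.1, 82.2 and 37.8 (1.12), so that the library labelled Th17 alone stood apart. Just under the 2-fold bound were the transcription factors Ahr (14.5 and 7.2, 0.99) and Batf (34.1 and 17.4, 0.96). Il23r, the receptor that maintains Th17 cells, had 13.1 and 8.2 (0.66), and Ccr6, their chemokine receptor, 41.2 and 34.0 (0.28). Basp1 had 14.1 and 15.2 (-0.11). Under each of the 3 scalings 4 of the 25 remained at least 2-fold higher, and with both libraries required to reach 10 it was 2 of 19.

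Genes of regulatory T cells lay near the overall median. Of 24 members of the iTreg list, of 28 in the list, 1 (4.17%, against 4.31% of all gene areas) was at least 2-fold higher in the library labelled iTreg and 0 in that labelled Th17, with a median of 0.15 and 11 of 24 above the overall median. The median was -0.02 when each library was divided by its mean. The 1 was Il10, an anti-inflammatory cytokine shared with Th2 cells, which had 12.6, 29.3, 51.7, 24.2 and 8.1 (1.56). Ctla4, an inhibitory receptor, came next, with 26.3, 27.1, 41.0, 35 and 20.4 (0.77). At the other end stood Lrrc32, which holds latent TGF-beta at the surface of regulatory T cells, with 19.0, 16.7, 28.0, 17.0 and 27.2 (-0.67), and Cd83 with 15.1 and 22.9 (-0.59). Il2ra, the IL-2 receptor alpha chain, had 39.2, 66.3, 70.5, 48.6 and 55.4 (-0.19). Neither library was thus the higher one throughout the list.

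The pathways that steer the choice between these fates differed in their medians. Of 15 genes that carry signals of interleukins 6, 21 and 23 to STAT3, 3 were at least 2-fold higher in the library labelled iTreg, against 4.31% of all gene areas, and 0 in the other, with a median of 0.66 and 14 of 15 above the overall median. Socs3, the feedback inhibitor of STAT3 (chromosome 11, 117827392 to 117830679), had 74.3, 54.4, 26.7, 29.4 and 6.7 (2.10), Il21 is given above, and Ptpn2, a phosphatase of JAK and STAT proteins, had 38.1 and 18.7 (1.02). Il6st, the shared receptor chain gp130, had 62.6 and 32.6 (0.94), and Stat3 itself 44.8 and 26.1 (0.77). The lowest were Il6 (-0.50) and Jak2 (0.23). Il6ra, Il12rb1, Il23r, Stat3, Il6st and Il21 are also in the Th17 list, so the medians of these lists are not separate observations. At Ptpn2 and Il6st the library labelled iTreg lay between Th1 and Th2 cells (34.3 and 39.6 at Ptpn2, 57.5 and 78.8 at Il6st), and that labelled Th17 lay below both.

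Of 11 genes of interleukin 2 and STAT5, 0 passed 2-fold either way and the median was 0.20, with Jak1 (0.53) and Stat5a (0.51) highest and Cish (-0.38) and Il2ra (-0.19) lowest. Cish, a feedback inhibitor of STAT5, had 97.2, 138.8, 218.6, 104.3 and 135.4. Of 28 TGF-beta pathway genes 0 passed 2-fold either way, with a median of 0.20. Ltbp3 (0.83) and Tgfbr2 (0.71), a binding protein and a receptor chain, were highest, and Smad6 (-0.84), an inhibitory Smad, and Lrrc32 lowest. Smad6 had 12.8 in the library labelled iTreg and 23 in that labelled Th17. These medians lay next to the 0.18 of all gene areas. Of all gene areas 4.31% were called higher in the library labelled iTreg and 0.834% in the other, so little can be read from a count of 0 in lists this small.

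Several other T cell lists also had medians above 0.18, and their counts stand beside the 4.31% of all gene areas that were called higher in the library labelled iTreg. The lists overlap: Il10, Maf, Gata3, Lat and Cd28, for example, each stand in more than 1 list. The naive T cell list had a median of 0.66 over 21 members, with Txnip (33.6 and 14.9, 1.16) and Klf3 (24.5 and 11.1, 1.13) at least 2-fold higher in the library labelled iTreg, and Dapl1 (-0.12) and Il7r (-0.03) lowest. Txnip had 78.1 in naive cells and 36.6 and 38.6 in Th1 and Th2 cells, so that naive cells stood above and the library labelled Th17 below the other 3. The T cell receptor signalling list had 4 of 33 at least 2-fold higher in the library labelled iTreg, 0 in the other, and a median of 0.48. The 4 were Plcg1 (18.2 and 7.7), the kinase Csk (43.8 and 20.5), the adaptor Lat (64.0 and 30.5) and the co-receptor Cd28 (20.1 and 9.9), and the lowest were Themis (-0.20) and Ptpn22 (-0.09). The T cell lineage list had 3 of 28 and a median of 0.47, led by Gata3 and Lat, with Tox (-0.20) and Tcf12 (-0.11) lowest. The Th2 list had 4 of 19 and a median of 0.52: Gata3, Il10, Maf and Gpr44, a prostaglandin receptor (1.06). Its cytokine genes went both ways: Il5 had 16.0 and 11.1 (0.52), Il4 20.2 and 26.2 (-0.37) and Il13 22.1 and 24.7 (-0.16), and Il6 was lowest (-0.50). The Th1 list had 1 of 17, Irf1 (44.2 and 17.7, 1.31), and a median of 0.15, which changed sign under scaling.

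Of 33 cytokine genes 5 were at least 2-fold higher in the library labelled iTreg, against 4.31% of all gene areas and more of the short ones, and 0 in the other: Il17f, Il25, Il17a, Il10 and Il21. The median of the cytokine list was 0.24. Of 37 cytokine receptor genes 0 passed 2-fold either way, with a median of 0.23 and Il6st (0.94) and Il12rb2 (0.93) highest and Il18rap (-0.58) and Il20rb (-0.37) lowest. Among 11 chemokine receptors Cxcr5, the receptor of follicular helper and B cells, had 98.6 and 47.4 (1.05). Of 19 genes of DNA methylation and its removal 1 passed 2-fold, Uhrf1, which directs Dnmt1 to replicated DNA (17.9 and 8.5, 1.06), and the lowest were Mbd1 (-0.93) and Idh1 (-0.66). Tet2, the enzyme in the title of the series, had 20.8 and 21.3 (-0.03), Tet1 23.6 and 21.6 (0.13) and Tet3 46.8 and 32.9 (0.51). The median of this list, 0.14, changed sign under scaling.

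**Figure D3:**
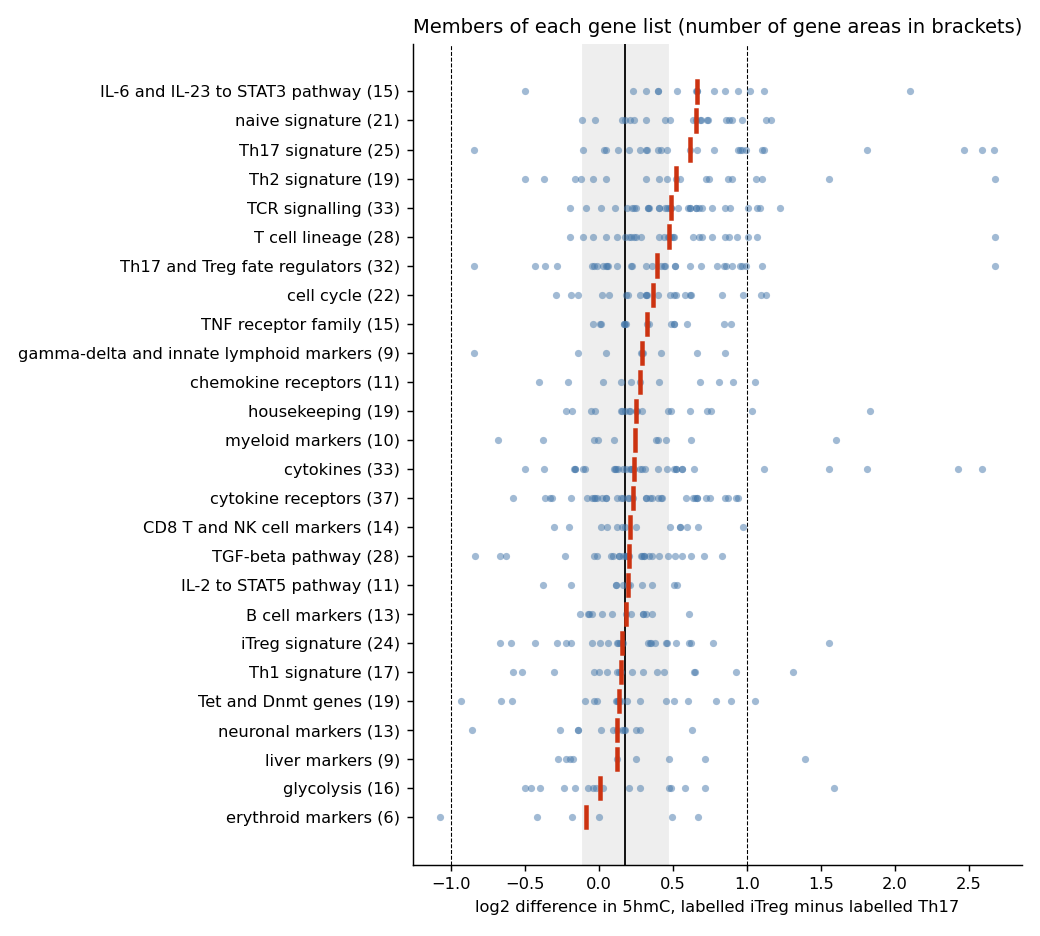
Log2 difference in 5hmC (labelled iTreg minus labelled Th17) of the members of 26 gene lists, 1 point per gene area, with list medians as red bars, the overall median (0.18) as a line, the overall quartiles shaded and the 2-fold bounds dashed. The IL-6 and IL-23, naive and Th17 lists have medians between 0.61 and 0.66, and the TGF-beta and IL-2 lists lie at 0.20.

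The remaining lists had medians on both sides of the overall 0.18. Their counts stand beside the 4.31% of all gene areas called higher in the library labelled iTreg, and no count was tested against it. Cell cycle genes had a median of 0.36, with Mcm3 and Ccne1 (1.09) at least 2-fold higher in the library labelled iTreg of 22. Glycolysis genes had a median of 0.00, with Aldoa (34.9 and 11.5, 1.58) alone of 16, and this median changed sign under scaling. Housekeeping genes had 0.25, with Eef1a1 (17.9 and 4.9, 1.83) and Ywhaz (1.04) of 19. Fate regulators of Th17 and regulatory T cells had 0.39 (2 of 32), and TNF receptor genes 0.32 (0 of 15). None of the genes of these 5 lists passed 2-fold in the other direction, against 0.834% of all gene areas.

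Marker lists of other cells had medians from -0.09 to 0.29. Their counts stand beside the 4.31% of all gene areas called higher in the library labelled iTreg and the 0.834% in that labelled Th17. The medians were 0.21 for CD8 T and NK cells (0 of 14 past 2-fold), 0.18 for B cells (0 of 13), 0.29 for gamma-delta and innate lymphoid cells (0 of 9), 0.12 for neurons (0 of 13) and 0.24 for myeloid cells, where Cd33 (1.60) was the 1 of 10 past 2-fold. The neuronal and liver medians changed sign under scaling. Liver genes had 0.12, with Afp (1.39) as 1 of 9, and erythroid genes -0.09, with Epb4.2 (-1.07) as 1 of 6 and the 1 list member of all 26 lists that was at least 2-fold higher in the library labelled Th17. The summed signal was 288.5 and 242.3 for CD8 T and NK markers, 366.9 and 334.8 for B cell markers, and 212.4 and 184.6 for myeloid markers in the libraries labelled iTreg and Th17. 5hmC is a mark on DNA and all these genes carried some of it, so these sums do not count cells, and the part of other cells in the results was not tested.

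Short gene areas held most of the large differences. At least 2-fold higher in the library labelled iTreg were 10.8% of gene areas of 3 to 5 kb, 7.69% of those of 5 to 10 kb, 4.17% at 10 to 20 kb, 2.29% at 20 to 50 kb, 1.82% at 50 to 100 kb and 0.604% of longer ones. The share higher in the library labelled Th17 went from 3.29% at 3 to 5 kb to 0.22% above 100 kb. The median length was 7880 bp among the 733 and 5743 bp among the 142, against 19855 bp over all gene areas. Il17a (3591 bp) and Il17f (7124 bp) belong to the short classes, whereas Gata3 (21522 bp) does not.

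The difference also varied with the CpG content of promoters, which could be counted for 11018 members, or 81.6% of protein-coding members outside chromosome 18. The motif searched was CG, which reads the same on both strands. The count was averaged over the promoters of a gene, and it was at least 1 for 97.8% of these members. The median log2 difference was 0.06 over 648 genes with under 2 CpG, 0.11 and 0.17 in the next classes of 2 to 5 and 5 to 10, 0.21 at 10 to 20 and 0.26 over 3096 genes with 20 or more. Set against the Th1 library, which both share, the library labelled iTreg differed by a median of 0.08 in the CpG-poorest class and 0.04 in the CpG-richest, and the library labelled Th17 by 0.03 and -0.22. Set against the naive library, both showed a gradient, from 0.12 to -0.50 in the library labelled iTreg and from 0.11 to -0.76 in that labelled Th17. The share at least 2-fold higher in the library labelled iTreg was 2.47% in the CpG-poorest class and 5.68% in the richest. Across members, which are not independent, Spearman's rho of the difference with promoter CpG was 0.14. The promoters of Il17a and Il17f printed above, with 4 CpG each, fall in a class with a median difference of 0.11.

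**Figure D4:**
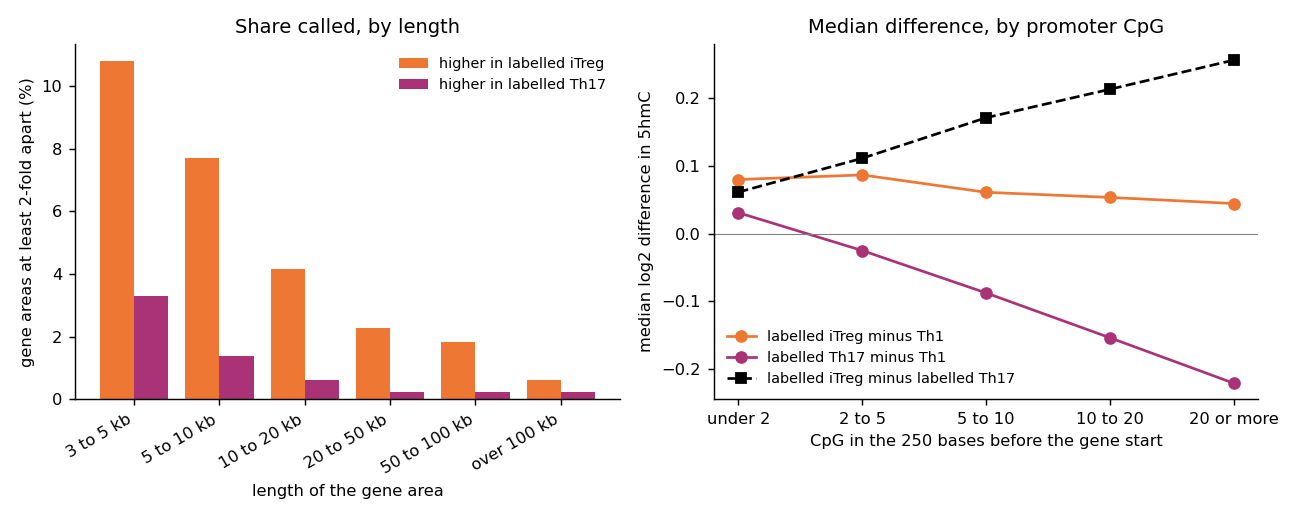
Left, percentage of gene areas at least 2-fold higher in the library labelled iTreg (orange) or labelled Th17 (purple), by length of the gene area. Right, median log2 difference in 5hmC by the number of CpG in the 250 bases before the gene start, averaged over the promoters of a gene. The line of the library labelled Th17 against Th1 falls from 0.03 to -0.22 while that of the library labelled iTreg stays between 0.04 and 0.09.

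Differences were shared between adjoining gene areas. Spearman's rho of the differences of successive gene areas was 0.54 for 1518 overlapping pairs, which share signal, and 0.35 for 5498 pairs up to 10 kb apart. It was 0.07 for 5088 pairs 10 to 50 kb apart, 0.08 for 3090 pairs 50 to 200 kb apart and 0.03 for 1804 pairs over 200 kb apart. Joining calls up to 10 kb apart, the 733 gene areas made 633 separate places, of which 83 held several, and the 142 made 141. Genes called next to each other, such as Irf3 with Scaf1, are therefore not separate observations.

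The 5mC signal of the same gene areas showed little of this. At least 2-fold higher in the iTreg 5mC library were 67 of 17018 gene areas (0.394%), and in the Th17 5mC library 50 (0.294%), and the median log2 difference was 0 at 1-decimal precision. Among the 733 these counts were 10 and 7, and among the 142 they were 4 and 1, with a median of 0 in both sets. Il17f had a 5mC signal of 0.3 in the iTreg library and 0.6 in the Th17 library, and Il17a 0.3 and 0.4, which are a few rounding steps above 0. The IgG signal was higher at both, 2.4 at Il17f and 3.1 at Il17a. Across members Spearman's rho between the 5hmC and the 5mC difference was 0.01. The median 5mC signal was 0.8 in both libraries, so rounding limits what the 5mC values can show.

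The IgG and input libraries, made from Th17 cells, gave the background. The median IgG signal over all members was 1.1 and the input median 1.9. IgG reached 5 in 11 of the 733 (1.5%), against 0.97% of all gene areas, and reached the signal of the library labelled Th17 in 8, against 24 of all 17018. Among these 11 are Gata3, Il25, Tor2a and Sh2d3c, while Irf3, Socs3, Il17a, Il17f and Maf are not.

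Among the 10 pairs of 5hmC libraries, the pair compared here differed more than Th1 and Th2 cells did. Th1 and Th2 differed at least 2-fold in 1.03% and 1.4% of gene areas (176 higher in Th1 and 239 in Th2), with a Spearman's rho of 0.83 across gene areas. The library labelled iTreg differed from Th1 in 1.18% and 1.11% (202 higher in Th1, 190 in labelled iTreg, rho 0.82), and from Th2 in 1.64% and 1.1%. The library labelled Th17 had 4.57% of gene areas at least 2-fold below Th1 and 0.964% above, with a rho of 0.73, and 6.35% below Th2 and 1.01% above. Against naive cells, 27.8% of gene areas were at least 2-fold lower in the library labelled Th17 and 14.5% in that labelled iTreg. Each library enters 4 of these pairs, so the pairs are not independent. The counts use the deposited scale and were not recomputed under other scalings. By these counts the library labelled iTreg was about as far from Th1 as Th2 was, and that labelled Th17 was further from naive, Th1 and Th2 cells than that labelled iTreg was.

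**Figure D5:**
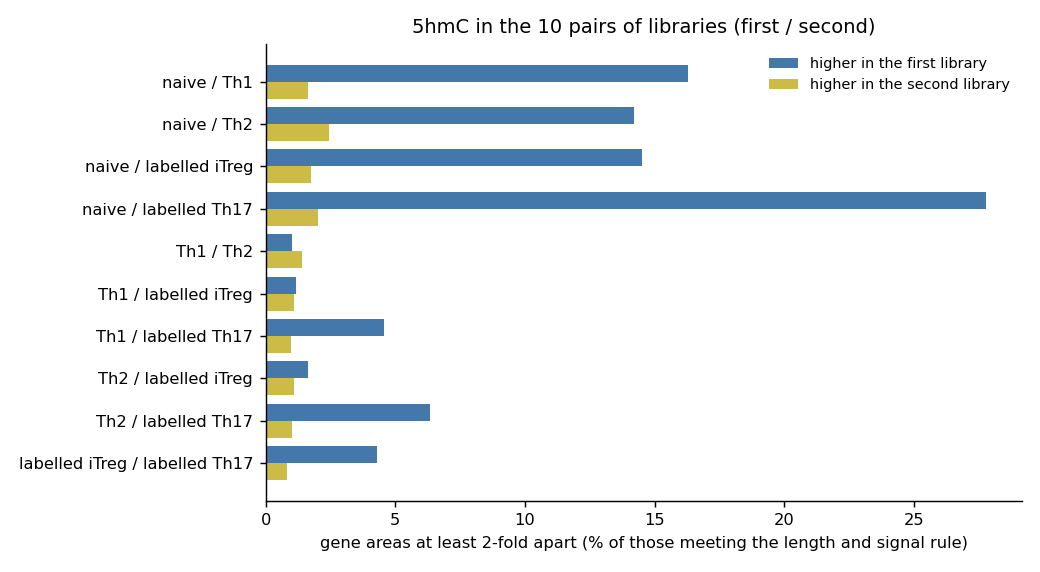
Percentage of gene areas at least 2-fold higher in the first (blue) or the second library (yellow) for the 10 pairs of 5hmC libraries, on the deposited scale. Th1, Th2 and the library labelled iTreg differ from each other in under 2% either way, whereas 4.31% to 6.35% of gene areas are lower in the library labelled Th17 than in each of these 3.

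By chromosome, the median log2 difference was lowest on chromosome X (0.08 over 464 gene areas, 15 called higher in the library labelled iTreg and 10 in the other) and highest on chromosome 10 (0.24). The share called higher in the library labelled iTreg was between 2.33% on chromosome 3 and 6.98% on chromosome 15, and the share called higher in the library labelled Th17 between 0.329% and 2.16%, the latter on chromosome X.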

How the data were processed

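Per the labels' protocols, sonicated, denatured DNA was precipitated with antibodies to 5mC or 5hmC or with control IgG. The authors deposited 1 table of non-negative signal values per gene area for 12 libraries, with 1 decimal. CASAVA 1.7.0 and build mm9 are named per the submitters' processing notes. Counting, scaling and depth were not given in the sources used here, so no interval or detection limit was computed. Columns were matched by the sample number in the titles, and 0 columns were unused. Repeated names removed 208 entries. Log2 differences were taken after adding 0.2, which understates differences of low gene areas, and a gene area was called at 2-fold.

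The members and the 26 gene lists were chosen with earlier results of these data known. Named were the 4 markers, the 12 largest differences each way (without predicted genes, pseudogenes, small RNAs, olfactory and vomeronasal receptors and receptor segments), the 2 highest and lowest of lists, the neighbours of markers and the gene areas nearest to the bounds. A gene area that these rules pick is not reported here. Promoters were matched by identifier, symbol or synonym for protein-coding members outside chromosome 18. With 1 library per group no test was possible. Alternatives in pseudocount, scaling, IgG subtraction, length, signal minimum and fold were tried. Scripts were tested on simulated data. Python 3.11.15, numpy 2.4.6, pandas 2.3.3, scipy 1.17.1 and matplotlib 3.10.9 were used.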

Additional observations from a re-analysis of the deposited data

How the results depend on the processing

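Over 16 alternatives the median log2 difference ran from 0.0044 to 0.23. The 733 gene areas higher in the library labelled iTreg became 440 with median-ratio scaling, 400 with division by the mean, 1957 without a length minimum, 310 at 10000 bp or more, 1172 without a signal minimum, 318 at a minimum of 20, 3037 at 1.5-fold and 93 at 3-fold. The 142 higher in the library labelled Th17 became 93 with a pseudocount of 1, 257 with median-ratio scaling, 389 with quantile normalization, 281 with division by the mean and 235 after IgG subtraction. They became 808 without a length minimum, 42 at 10000 bp or more, 452 without a signal minimum, 72 with the minimum on the mean of the 5 libraries, 26 at a minimum of 20, 769 at 1.5-fold and 20 at 3-fold. Requiring 10 in both libraries, chosen after seeing the data, gave 219 and 22. Alternatives in length, signal minimum and fold test other gene areas or bounds; under scaling, pseudocount and IgG subtraction the cause was not tested. The Th17 list median ran from 0.40 to 0.64, and the iTreg list median from -0.016, with division by the mean, to 0.16. The Th17 list count of 6 became 4 under each scaling, 0 of 17 at 10000 bp or more, 2 of 19 with both libraries at 10 and 9 after IgG subtraction. Differences ran from 1.64 to 2.27 at Il17a, 2.42 to 3.30 at Il17f, 2.42 to 3.54 at Gata3 and -0.49 to -0.28 at Foxp3. No paired analysis was possible because each group holds 1 library. The depth is unknown, so low gene areas, which hold most calls, have an unknown counting error.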
